A study of Mus musculus with 16 samples.

Results

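The genes described here are the early growth response factors Egr1, Egr2, Egr3 and Egr4, the serum response factor Srf, and the EGR co-repressors Nab1 and Nab2. They were taken by name from the deposited gene count table, which held all 7 of them among 23329 genes. EGR proteins are zinc-finger transcription factors of the immediate-early class, whose genes are switched on within minutes of a stimulus. In the textbook route, RAS, RAF, MEK and ERK kinases phosphorylate ternary complex factors of the ELK family, which sit beside SRF at CArG boxes, the serum response elements. NAB1 and NAB2 bind EGR1, EGR2 and EGR3 and repress through them, in part by recruiting the CHD4-containing NuRD complex, whereas EGR4 lacks the NAB-binding domain. In β-cells EGR1 is known as a factor induced by glucose and calcium.

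RNA came from BetaTC6, a mouse β-cell line derived from an insulinoma and labelled with a C57BL/6 background. The cells were plated for 3 days, kept without glucose, and then exposed for 30 min to 20 mM glucose with ivermectin, an antiparasitic drug that also acts on ligand-gated channels, or with DMSO, the vehicle. All groups therefore had high glucose, and no group without glucose was analysed here. The 4 groups held 4 libraries each: wild type with DMSO, wild type with ivermectin, P2ry1 knockout with DMSO, and P2ry1 knockout with ivermectin. P2ry1 encodes a purinergic receptor. The dose of ivermectin, how P2ry1 was altered, and whether the knockout line is 1 clone are not given in the sources used here. Nothing in the labels says that replicates came from separate cultures on separate days, so p-values measure the spread between these libraries, which may be technical.

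The library totals ran from 893088 to 2013242 counts, and the 4 lowest were the wild-type vehicle libraries, at 893088 to 1064787. P2ry1 transcripts did not separate the genotype labels: wild-type libraries averaged 94.6 ± 8.57 CPM with vehicle and 93.1 ± 7.58 CPM with ivermectin, and those labelled knockout 84.0 ± 8.98 and 85.5 ± 4.95 CPM (SD, n = 4; CPM are counts scaled to a common library total with TMM factors). The difference between labels was -0.17 on the log2 scale in vehicle (edgeR adjusted p = 0.245) and -0.11 in ivermectin (adjusted p = 0.394). A transcript count does not show whether a functional receptor was made, so these libraries are called labelled knockout throughout. All 14 β-cell markers examined were detected in every group, with a summed level of 37121 to 48680 CPM. Markers of hepatocytes, which a β-cell line should lack, stood apart in 1 group: the 20 examined summed to 823 to 2268 CPM in wild-type vehicle, 212 to 471 CPM in wild-type ivermectin, 63.7 to 163 CPM in labelled knockout vehicle and 101 to 357 CPM in labelled knockout ivermectin, and none was at 0 in any group. Skeletal muscle markers summed to 12.1 to 23.5 CPM in wild-type vehicle, against 2.65 to 17.0 CPM in wild-type ivermectin and 0.647 to 3.92 CPM in the labelled knockout. Fibroblast markers summed to 7.48 to 9.29 CPM in wild-type vehicle and to 1.64 to 6.28 CPM over the other groups. Delta-cell markers summed to 265 to 335 CPM in the wild-type libraries and to 65.7 to 93.4 CPM in those labelled knockout. By a chi-squared comparison of counts, wild-type ivermectin replicate 4 stood apart from its group: its 3 replicate pairs were at 5.25 to 7.17 per degree of freedom and the other 21 pairs of the study at 1.17 to 2.23. In bulk RNA, fewer cells of a type and less RNA per cell cannot be told apart.

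Sequences upstream of the transcription start were searched for the elements of this pathway. RefSeq promoter windows (GRCm38.p6, the primary assembly of mm10) were matched for 5 members, Srf, Egr2, Egr4, Nab1 and Nab2, and the 250 bases before the start of each counted transcript were searched on both strands. Egr1 and Egr3 had no window used here, so whether they carry these elements was not examined. The patterns were the CArG box, the EGR site GCGNGGGCG, the full cyclic AMP response element TGACGTCA and its shorter part ACGTCA, the ETS core CCGGAA, and the SP site GGGGCGGGG, which can overlap the EGR site. Of all 32851 windows of the same length, 1.47% held a CArG box, 4.70% an EGR site, 1.55% TGACGTCA, 6.47% ACGTCA, 12% CCGGAA and 10.4% the SP site. Bases are numbered backwards from -1, the last base before the transcript start, and capitals mark the matches.

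The Srf window held 2 CArG boxes, at -82 to -73 and -62 to -53 (chr17:46556215-46556244, minus strand), inside an exon of a longer predicted Srf transcript. Upstream of them lay an ETS core at -122 to -117 and an EGR site at -101 to -93 (chr17:46556255-46556284), the latter overlapped by an SP site. The Egr2 window held a CArG box at -72 to -63 and ACGTCA at -56 to -51 (chr10:67537797-67537818, plus strand), in an exon of another Egr2 transcript. These are the stretches shown, because they set the SRF-type members beside each other.
Srf CArG pair: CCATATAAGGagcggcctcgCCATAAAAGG
Srf ETS core and EGR site: CCGGAAgcgcggaccaatgggGCGGGGGCG
Egr2 CArG box and ACGTCA: CCATATATGGgcagcgACGTCA

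The Nab1 window held 3 EGR sites and no CArG box, and lay inside an exon of a longer predicted transcript on the minus strand of chromosome 1. The distal site is at -141 to -133 and matches on the opposite strand (shown within chr1:52500575-52500595). The middle site is at -109 to -101 (within chr1:52500543-52500563), and the proximal one at -38 to -30 (within chr1:52500472-52500494) is overlapped by SP sites. They are shown because Nab1 is the co-repressor whose level differed between the lines.
Nab1 distal EGR site: cgcggcCGCCCACGCcgggat
Nab1 middle EGR site: ggccgcGCGTGGGCGggagcc
Nab1 proximal EGR site: ggggcgggGCGGGGGCGgcggag

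The Egr4 window, which holds no annotated exon, carried ACGTCA at -178 to -173 and -110 to -105 and neither a CArG box nor an EGR site (chr6:85513688-85513773, minus strand). The Nab2 window (chr10:127666704-127666953, minus strand), also free of exons, had no match to any of the patterns. A missing match says only that those letters are not in this window.
Egr4 ACGTCA pair: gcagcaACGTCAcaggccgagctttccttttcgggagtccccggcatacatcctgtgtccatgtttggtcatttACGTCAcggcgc
Nab2 upstream: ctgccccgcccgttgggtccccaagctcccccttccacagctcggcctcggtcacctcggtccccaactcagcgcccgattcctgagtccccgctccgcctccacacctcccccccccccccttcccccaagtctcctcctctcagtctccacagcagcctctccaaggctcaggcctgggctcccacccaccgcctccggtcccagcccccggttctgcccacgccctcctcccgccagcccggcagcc

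Per unit of transcript length, Egr1 was the dominant EGR transcript in every group. Its deposited TPM, a share of all transcripts that is corrected for length, averaged 61.3 ± 14.5 with vehicle and 174 ± 33.2 with ivermectin in wild type (SD, n = 4). In the labelled knockout it averaged 92.4 ± 11.0 with vehicle and 108 ± 8.30 with ivermectin. Egr1 made up 93.8%, 97.3%, 95% and 96.0% of the summed TPM of the 4 Egr genes in those 4 groups. The order of mean TPM was the same in all 4 groups: Egr1, Nab2, Srf, Nab1, Egr4, Egr2, Egr3. Nab2 averaged 30.9 to 31.7 TPM, Srf 15.7 to 21.1 TPM, Nab1 10.8 to 14.4 TPM, Egr4 2.78 to 4.01 TPM, Egr2 0.84 to 1.57 TPM and Egr3 0 to 0.31 TPM. Among neighbours in that order, Egr1 and Nab2 did not overlap over libraries in any group. Nab2 and Srf overlapped in wild-type vehicle, and Srf and Nab1 overlapped in both labelled knockout groups. The gene pairs Egr4 and Egr2, and Egr2 and Egr3, overlapped in wild-type vehicle, and the latter also in labelled knockout vehicle.

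Of the 7 members, 4 had enough counts to enter the test across genes, Egr1, Nab1, Nab2 and Srf. The low-count filter kept 10820 genes in all.

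Egr1 transcripts were 2.88-fold higher with ivermectin than with vehicle in wild-type cells, and no other tested member passed the threshold in that comparison. The wild-type vehicle libraries gave 139, 139, 81.2 and 112 CPM, and the wild-type ivermectin libraries 232, 393, 353 and 391 CPM. Every ivermectin library lay above every vehicle library, and ivermectin replicate 1 was the lowest of its group. The log2 difference was 1.53 (SE 0.134, 95% interval 1.25 to 1.80, edgeR adjusted p = 2.1e-09), against 0.601% of all tested genes past the threshold in either direction and 0.0555%, or 6 genes, in the upward direction. Libraries did not overlap, with ivermectin higher, for 1.4% of tested genes. Without ivermectin replicate 1 it was 1.68, and without replicate 4 it was 1.46.

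Hepatocyte transcripts moved in the opposite direction in the same comparison: 18 of the 19 tested markers were called lower with ivermectin, and Alb, which encodes albumin, averaged 579 ± 278 CPM with vehicle and 101 ± 52.9 CPM with ivermectin (SD, n = 4). With Alb as a covariate the Egr1 difference was 1.45 (SE 0.200, adjusted p = 0.000136). Under that covariate 1 of 10820 genes was called, Egr1, against 65 genes without it. Alb did not overlap between the wild-type groups, nor between the labels in vehicle. In those comparisons the covariate shares much of the group difference and raises standard errors, so a lost call says little about hepatocyte transcripts.

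**Figure D1:**
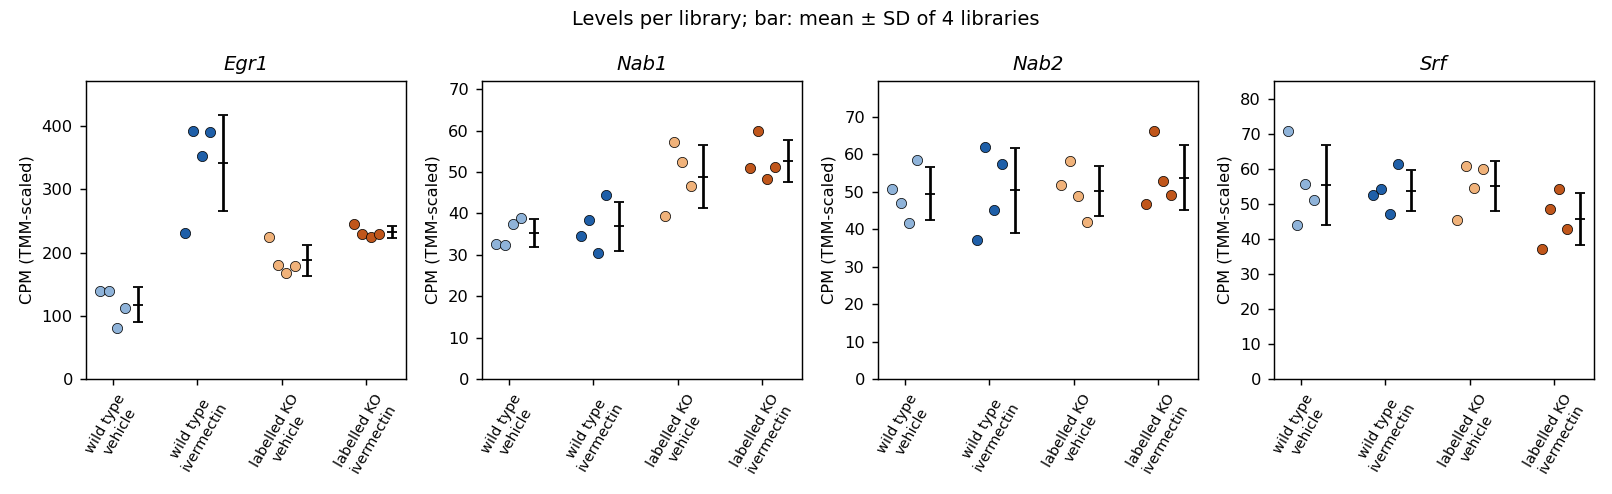
Level of each tested member in CPM (vertical axis, starting at 0) in the 16 libraries by group (points; bars are mean ± SD of 4 libraries). Egr1 in wild type spans 81.2 to 139 CPM with vehicle and 232 to 393 CPM with ivermectin, while Nab2 and Srf overlap between all groups.

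In the libraries labelled knockout, Egr1 was not called. Vehicle libraries gave 224, 180, 168 and 180 CPM, and ivermectin libraries 246, 230, 224 and 229 CPM. The ranges touched: vehicle replicate 1 and the lowest ivermectin library both rounded to 224 CPM. The log2 difference was 0.31 (SE 0.116, 95% interval 0.07 to 0.55), with an unadjusted p of 0.0115 and an edgeR adjusted p of 0.594. In this comparison 0 of 10820 genes passed (0.0%), 820 (7.58%) had an unadjusted p under 0.05, and DESeq2 also called 0. Without the low-count filter, where 23 of 17703 genes (0.13%) were called, the difference of 0.30 passed the threshold (adjusted p = 0.0284).

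The difference between the ivermectin responses was itself tested. The labelled knockout response of Egr1 was lower than the wild-type response by 1.22 on the log2 scale (difference -1.22, SE 0.179, 95% interval -1.58 to -0.85, edgeR adjusted p = 0.000361). Egr1 was the single gene called in that direction (0.00924% of those tested), and 0.222% of genes were called in either direction. The other 23 called genes went the other way, among them 10 of the 19 tested hepatocyte markers. With Alb as a covariate the estimate was -1.12 (SE 0.256). Its adjusted p was 1 in a fit in which 0 of 10820 genes were called, against 24 genes without the covariate. Without wild-type ivermectin replicate 1 it was -1.37, and without replicate 4 it was -1.15.

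The level of Egr1 also differed between the lines within each treatment. In vehicle, Egr1 averaged 188 ± 24.7 CPM in the libraries labelled knockout and 118 ± 27.6 CPM in wild type (SD, n = 4), with no overlap of libraries. The log2 difference was 0.67 (SE 0.140, 95% interval 0.38 to 0.95, edgeR adjusted p = 0.000519), in a comparison in which 20.7% of genes were called, 9.86% were called higher, and 10.7% had labelled knockout libraries that were all above the wild-type ones. All 19 tested hepatocyte markers were lower in the labelled knockout in this comparison. With Alb as a covariate the difference was 0.55 (SE 0.262, adjusted p = 0.271). In ivermectin the sign was opposite: Egr1 was lower in the labelled knockout, at 232 ± 9.26 against 342 ± 75.9 CPM, a log2 difference of -0.55 (SE 0.112, adjusted p = 0.000299). Here 27.8% of genes were called, 13.9% of them lower as a share of all tested, 1 of 19 hepatocyte markers was called lower, and the Alb covariate gave -0.57 (adjusted p = 0.000345). Without wild-type ivermectin replicate 1 the difference was -0.70, and without replicate 4 it was -0.48. The groups overlapped through wild-type ivermectin replicate 1, at 232 CPM.

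Relative to counting noise, Egr1 varied most between replicates in wild-type ivermectin, where the variance over the 4 libraries was 28.7 times what counting alone gives. The same ratio was 5.95 in wild-type vehicle, 5.50 in labelled knockout vehicle and 0.879 in labelled knockout ivermectin. This ratio grows with the level. Beside the mean, the SD was alike in the wild-type groups, 75.9 on 342 CPM with ivermectin and 27.6 on 118 CPM with vehicle. Wild-type ivermectin replicate 1 had the lowest Egr1 level of its group, 232 CPM, and the highest Alb level, 172 CPM, against 57.7 to 112 CPM of Alb in the other three. The other groups went the other way, with the highest Alb and the highest Egr1 both in replicate 1. Alb and Egr1 were at 923 and 139 CPM there in wild-type vehicle, where replicate 2 also had 139 CPM of Egr1. They were at 52.3 and 224 CPM in labelled knockout vehicle, and at 144 and 246 CPM in labelled knockout ivermectin. Across groups, the 8 labelled knockout libraries covered 17.1 to 144 CPM of Alb at 168 to 246 CPM of Egr1. The part of the hepatocyte transcripts in the Egr1 values was not tested beyond the covariate.

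**Figure D2:**
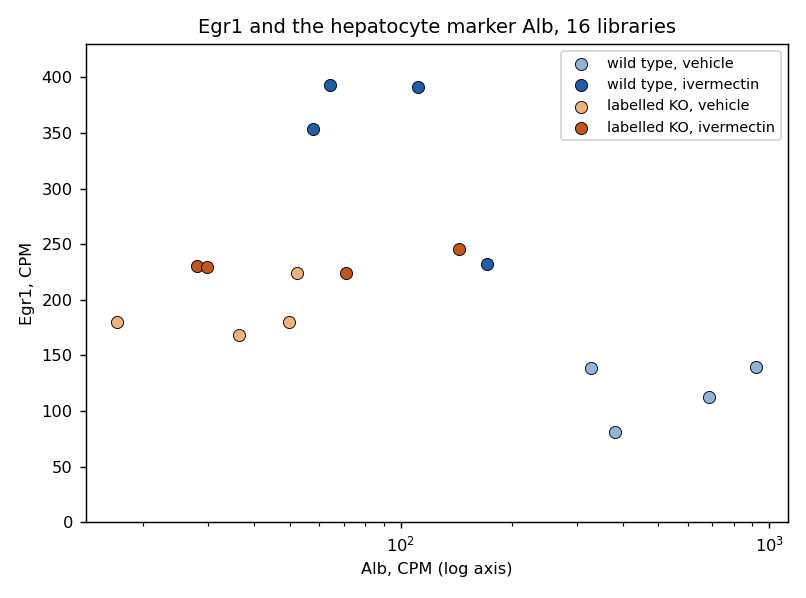
Egr1 (vertical axis, CPM) against the hepatocyte marker Alb (horizontal log axis, CPM), 1 point per library, coloured by group. The wild-type vehicle libraries lie at 328 to 923 CPM of Alb, and wild-type ivermectin replicate 1 lies at 172 CPM of Alb and 232 CPM of Egr1.

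The 3 members under the filter had few counts. Egr2, known for its part in Schwann cells and lymphocytes, had 0, 2, 3 and 2 counts in wild-type vehicle, 7, 6, 4 and 3 in wild-type ivermectin, 7, 3, 0 and 2 in labelled knockout vehicle, and 3, 3, 5 and 1 in labelled knockout ivermectin. Its group means were 1.76, 2.93, 1.66 and 1.81 CPM in that order. Egr3 had 1 count in wild-type vehicle replicate 2, 1 count in wild-type ivermectin replicate 3, and 0 in the other 14 libraries, including all 8 labelled knockout ones. A count of 0 allows up to 1.49 to 3.36 CPM over the 16 libraries, taking 3 counts as the limit and covering counting error only.

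Egr4 had 2, 6, 2 and 4 counts in wild-type vehicle, 5, 7, 9 and 4 in wild-type ivermectin, 8, 11, 11 and 11 in labelled knockout vehicle, and 11, 5, 9 and 9 in labelled knockout ivermectin. The higher counts of the labelled knockout libraries went with higher totals, and on the CPM scale the means were 3.49, 3.84, 5.37 and 5.11. Two-sided exact permutation tests on CPM, 12 in all with a smallest possible p of 0.0286, gave a lowest p of 0.114, for Egr2 between the labels in ivermectin, and a lowest adjusted p of 0.571. With 4 libraries against 4 and 12 tests, 1 comparison alone could not pass the adjusted threshold, so these tests say little. Without the low-count filter, edgeR and DESeq2 also called none of the 3. Egr2 also overlaps the annotated gene Gm32255, and the sources used here do not state whether counting used strand.

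**Figure D3:**
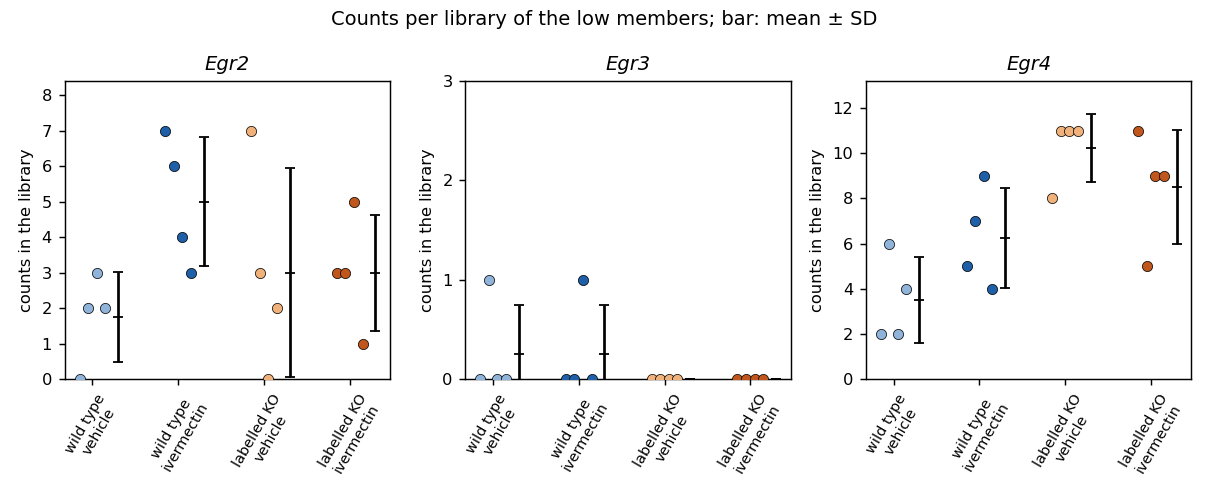
Counts per library of Egr2, Egr3 and Egr4 (vertical axis, counts, starting at 0) by group, with mean ± SD of 4 libraries. No library holds more than 11 counts of any of them, and Egr3 has 1 count in each of 2 wild-type libraries.

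Nab1, a co-repressor that binds EGR proteins, differed by genotype label and not detectably by ivermectin. Its wild-type vehicle libraries gave 32.6, 32.3, 37.4 and 39.0 CPM, and its wild-type ivermectin libraries 34.5, 38.4, 30.5 and 44.4 CPM. Labelled knockout vehicle libraries gave 39.5, 57.2, 52.4 and 46.6 CPM, and labelled knockout ivermectin libraries 50.9, 59.98, 48.4 and 51.1 CPM. Within each treatment all labelled knockout libraries were above all wild-type ones, with the closest pair in vehicle at 39.5 and 39.0 CPM.

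The log2 difference between labels was 0.47 in vehicle (SE 0.147, 95% interval 0.18 to 0.77, edgeR adjusted p = 0.0180) and 0.52 in ivermectin (SE 0.129, 95% interval 0.26 to 0.78, adjusted p = 0.00225). In these comparisons 9.86% and 13.9% of all tested genes were called higher, and 10.7% and 12.6% were higher without overlap. The vehicle call was lost with Alb as a covariate (0.14, SE 0.282, adjusted p = 0.861), with libraries thinned to the smallest total (0.39, adjusted p = 0.105), with DESeq2 (0.48, adjusted p = 0.0739), and without wild-type vehicle replicate 1 (adjusted p = 0.0504) or 2 (0.0653) or labelled knockout vehicle replicate 2 (0.0635). The ivermectin call was kept under each alternative tried. With ivermectin against vehicle, Nab1 was at 0.05 in wild type (95% interval -0.27 to 0.37) and at 0.10 in the labelled knockout (-0.14 to 0.34).

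Nab2, which is itself known as an EGR1-induced gene and so closes a negative loop, was called in none of the 5 comparisons. Wild-type vehicle libraries gave 50.6, 46.9, 41.7 and 58.5 CPM, and wild-type ivermectin libraries 37.0, 61.9, 45.1 and 57.4 CPM. Labelled knockout vehicle libraries gave 51.7, 58.2, 48.9 and 41.8 CPM, and labelled knockout ivermectin libraries 46.6, 66.3, 52.9 and 49.2 CPM. All 4 groups overlapped. The ivermectin difference in wild type was 0.01 on the log2 scale with a 95% interval of -0.32 to 0.33, a range that reaches at most 1.26-fold higher. The other differences were 0.02 to 0.11. Nab2 overlaps the annotated gene Stat6, so its counts are uncertain if strand was not used.

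The ratio of Egr1 to the summed Nab1 and Nab2 TPM was higher in every ivermectin library than in every vehicle library of wild type. It was 1.74, 1.81, 1.12 and 1.15 in the vehicle libraries and 3.54, 3.96, 4.76 and 4.01 in the ivermectin libraries. In the labelled knockout it was 2.09 ± 0.392 with vehicle and 2.42 ± 0.344 with ivermectin (SD, n = 4), and those ranges, 1.69 to 2.55 and 1.97 to 2.80, overlapped. The ratio of Nab2 to Nab1 averaged 2.95 and 2.88 in the wild-type groups and 2.21 and 2.15 in the labelled knockout groups.

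Srf, the factor that the ternary complex and the myocardin-related cofactors share, was called in none of the 5 comparisons. Wild-type vehicle libraries gave 70.8, 44.0, 55.6 and 51.1 CPM, and wild-type ivermectin libraries 52.5, 54.3, 47.1 and 61.2 CPM. Labelled knockout vehicle libraries gave 45.3, 60.7, 54.4 and 59.9 CPM, and labelled knockout ivermectin libraries 37.0, 48.6, 54.2 and 42.7 CPM. The wild-type ivermectin difference was -0.04 (95% interval -0.33 to 0.25). In the labelled knockout it was -0.28 (95% interval -0.54 to -0.03), with an unadjusted p of 0.0322 and an edgeR adjusted p of 0.645.

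**Figure D4:**
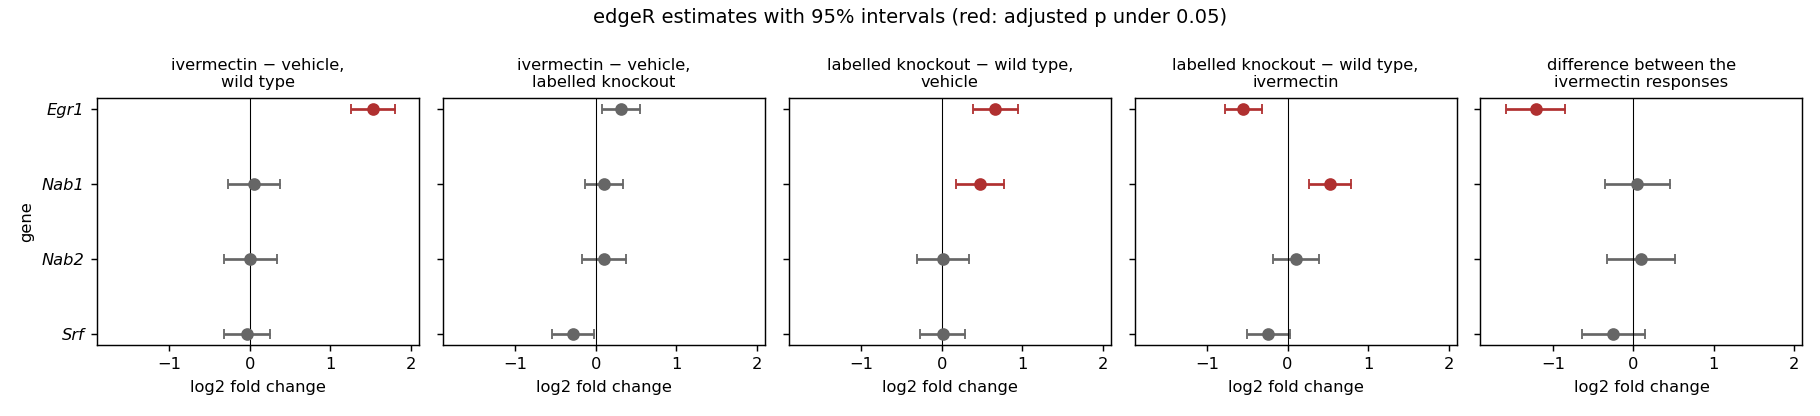
Fitted log2 fold changes (horizontal axis) of the 4 tested members in 5 comparisons, with 95% intervals; red marks adjusted p under 0.05. Egr1 is at 1.53 in wild type, 0.31 in the labelled knockout and -1.22 for the difference of these responses, and Nab1 is called in both comparisons between labels.

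The genes around these members were counted in lists of the pathway. The upstream kinase list, RAS, RAF, MEK, ERK and RSK genes with the scaffold Ksr1, had 15 tested genes and none called with ivermectin in either line, with medians of -0.01 and -0.02 on the log2 scale. Between labels, Araf, which encodes a RAF kinase, was higher in the labelled knockout in vehicle by 0.40 and in ivermectin by 0.38. Map2k2, which encodes MEK2, was higher by 0.27 and 0.24. In vehicle Ksr1 was also lower (-1.02), and in ivermectin Mapk3, which encodes ERK1, was higher (0.23) and the RSK kinase gene Rps6ka3 lower (-0.53). In all, 2 were called higher and 3 lower in vehicle, and 3 higher and 3 lower in ivermectin, of 15, beside 20.7% and 27.8% of all tested genes called in those comparisons. The Alb covariate left 0 of 15 called in vehicle, where 404 of 10820 genes were called, and 3 higher and 4 lower in ivermectin. In vehicle Araf was then at 0.084, Map2k2 at 0.21 and Ksr1 at -1.25. Without wild-type ivermectin replicate 1 the ivermectin call of Map2k2 was lost (0.19, adjusted p = 0.0776), and 2 were called higher and 3 lower. Without replicate 4 the counts were 4 and 3.

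The list of SRF partners had 5 tested genes, with none called for ivermectin in either line. Between labels, Elk3, a ternary complex factor, was lower in the labelled knockout, with differences of -0.72 in vehicle and -1.03 in ivermectin. The ternary complex factor Elk4 was called lower in vehicle (-0.92), and Mkl2, which encodes a myocardin-related cofactor of SRF, in ivermectin (-0.65). No partner was called higher. These 2 of 5 genes in each treatment stand beside 20.7% and 27.8% of all tested genes. Under the Alb covariate 0 were called in vehicle and 2 lower in ivermectin. In vehicle Elk3 was then at -0.62 (SE 0.497, against 0.237 without the covariate) and Elk4 at -1.80 (SE 0.646, against 0.330).

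Other early genes of the serum response were followed in a list of 24. The list was chosen with earlier results of these data known, so its counts are a description and no test of the pathway. Of these 20 were tested, and 5 were called higher with ivermectin in wild type, none lower. They were the AP-1 genes Fos (1.28, SE 0.227, adjusted p = 0.000616) and Junb (0.91, SE 0.149), the nuclear receptor gene Nr4a1 (0.88, SE 0.193), Ier2 (0.87, SE 0.186) and the antiproliferative gene Btg2 (0.70, SE 0.142). With Egr1 these are the 6 genes called higher in that comparison. Of the 20 log2 differences 19 were above 0, with a median of 0.46 against 0.00 for all tested genes. In the labelled knockout 0 of 20 were called, where 0 of all 10820 tested genes were called, and 12 were above 0, with a median of 0.09. All 5 calls in wild type were lost with Alb as a covariate, under which 1 of 10820 genes was called. The differences were then 0.77 for Fos (SE 0.320), 0.65 for Ier2 (SE 0.269), 0.58 for Junb (SE 0.211), 0.55 for Btg2 (SE 0.209) and 0.33 for Nr4a1 (SE 0.279), each with an adjusted p of 1, and 17 of the 20 were above 0. Without wild-type ivermectin replicate 1, 9 of 20 were called higher, and without replicate 4, 4 were, Nr4a1 having an adjusted p of 0.0593. The difference of the responses was called for 0 of 20, with 19 below 0 and a median of -0.40. Without wild-type ivermectin replicate 1 it was called for 2, both lower, and the Alb covariate gave 0 called and a median of -0.16.

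Between labels in vehicle, 1 early gene of 20 was called higher, Klf6 (0.30), beside 9.86% of all tested genes called higher and 20.7% in either direction. With Alb as a covariate 0 were higher and 1 lower, with Klf6 at 0.13. In ivermectin 6 were called lower and Klf6 higher (0.29). The lower ones were Arc (-1.29), Nr4a1 (-0.84), Klf4 (-0.63), Fos (-0.59), the MAP kinase phosphatase gene Dusp1 (-0.48) and Maff (-0.41). The wild-type ivermectin libraries enter both this comparison and the one of ivermectin with vehicle, so these counts share samples. Among all tested genes 27.8% were called here, and 13.9% lower. The count of early genes called lower was 13 without wild-type ivermectin replicate 1, 3 without replicate 4 and 9 with Alb as a covariate, and Klf6 was not called higher in any of these. Those lost without replicate 4 were Fos (-0.46, adjusted p = 0.0557), Klf4 (-0.54, adjusted p = 0.0807) and Maff (-0.30, adjusted p = 0.142).

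**Figure D5:**
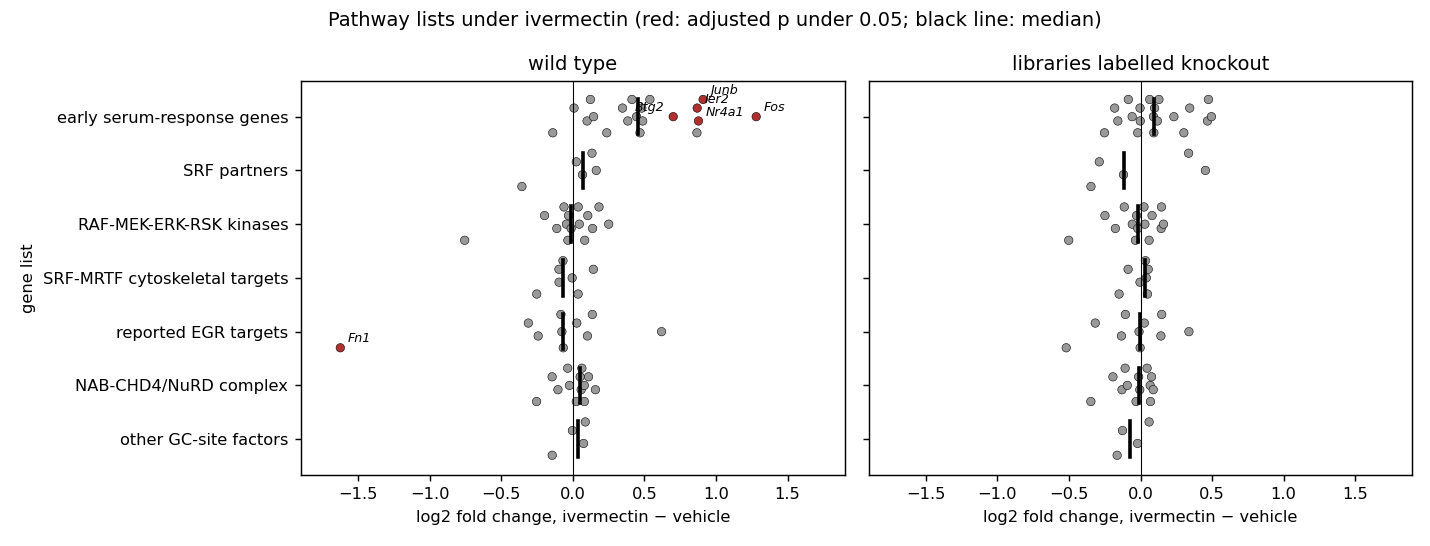
Log2 fold changes with ivermectin (horizontal axis) of the tested genes of 7 pathway lists (rows; vertical offsets only separate points), in wild type and in the libraries labelled knockout. Red points passed the test and black lines are medians; 5 early genes passed upward and Fn1 downward in wild type, and none in the labelled knockout.

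The genes whose profile over the 16 libraries was nearest to that of Egr1 came mostly from the same early list. Likeness was the root-mean-square difference of log2 CPM after centring each gene on its own mean, over 10820 genes. The nearest were Fos (0.33), Ier2 (0.35), Junb (0.36), Baz1a (0.36) and Btg2 (0.37), against a spread of Egr1 itself of 0.60 and a median over all genes of 0.64. Baz1a encodes a chromatin remodelling subunit and was not called with ivermectin in wild type (0.65, SE 0.210, adjusted p = 0.358). Among the members, Nab2 ranked 1625, Nab1 5273 and Srf 7124 in this order, which is a description over libraries that share groups and depth.

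Fos, the nearest, averaged 33.5 ± 7.31 CPM with vehicle and 82.9 ± 25.4 CPM with ivermectin in wild type, and 38.7 ± 7.20 and 54.2 ± 18.8 CPM in the labelled knockout (SD, n = 4). Its vehicle groups did not differ detectably between labels (0.21, 95% interval -0.30 to 0.73). That interval holds the Egr1 difference of 0.67, and the genes were not tested against each other. Its ivermectin difference in the labelled knockout was 0.47 (95% interval 0.07 to 0.88, adjusted p = 0.645).

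The cytoskeletal genes that SRF controls with myocardin-related cofactors had 7 of 16 tested, with none called for ivermectin in either line and medians of -0.07 and 0.03. Between labels the actin gene Actg1 was higher in the labelled knockout, by 0.44 in vehicle and 0.47 in ivermectin. Actb was lower in vehicle (-0.17), but at 0.040 and not called with Alb as a covariate (adjusted p = 0.910), and the tropomyosin gene Tpm1 higher in ivermectin (0.47). These are 2 of 7 genes in each treatment, beside 20.7% and 27.8% of all tested genes. The Alb covariate gave 1 in vehicle, higher, and 2 higher in ivermectin.

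Genes reported elsewhere as EGR targets had 10 of 16 tested. With ivermectin in wild type 1 was called, in the downward direction, beside 0.601% of all tested genes called in either direction. This was Fn1, which encodes fibronectin, a protein that hepatocytes also secrete. Fn1 averaged 19.5 ± 7.0 CPM with vehicle and 6.08 ± 1.86 CPM with ivermectin (SD, n = 4), a difference of -1.63 (SE 0.290, adjusted p = 0.000666), in the comparison in which 18 of 19 hepatocyte markers were lower. With Alb as a covariate the difference was -1.05 (SE 0.421, adjusted p = 1), and the call was lost. Pdx1, the β-cell homeobox gene, was at -0.08 with ivermectin in wild type and -0.11 in the labelled knockout, and neither passed.

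Between labels, the targets moved both ways: 3 higher and 3 lower in vehicle, and 4 higher and 2 lower in ivermectin, of 10, beside 20.7% and 27.8% of all tested genes called in either direction. In the fit with the Alb covariate 1 was called in vehicle, lower, and the ivermectin counts were again 4 and 2. Tgfb1, a growth factor gene, was higher in the labelled knockout by 1.61 and 1.54, and the autophagy receptor gene Sqstm1 by 0.32 and 0.28, in vehicle and in ivermectin. Pdx1 was lower, with differences of -0.28 and -0.31, and the angiogenic factor gene Vegfa with -0.48 and -0.38. In vehicle with Alb as a covariate, Tgfb1 was at 1.08, Sqstm1 at 0.38 and Pdx1 at -0.28, none of them called. Fn1 was lower in vehicle (-0.99) and higher in ivermectin (0.78). The vehicle difference was -0.085 with Alb as a covariate (adjusted p = 0.970), and the ivermectin difference was 0.69 without wild-type ivermectin replicate 4 (adjusted p = 0.0991), neither of them called. Fn1 was the single target called for the difference of the ivermectin responses (1.77), beside 0.222% of all tested genes. The call was lost with Alb as a covariate (1.03, SE 0.557) and without wild-type ivermectin replicate 4 (1.67, adjusted p = 0.0778).

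The CHD4 and NuRD list, the complex that NAB proteins recruit, had all 13 genes tested and none called for ivermectin in either line, with medians of 0.05 and -0.01. Between labels Mbd2, a methyl-CpG-binding subunit, was higher in the labelled knockout by 0.36 and 0.38, its paralogue Mbd3 by 0.28 and 0.26, and the remodeller gene Chd3 by 0.27 in both. In vehicle Mta1 was lower (-0.36), and in ivermectin Chd4 (-0.26), Gatad2a (-0.26) and Gatad2b (-0.62) were lower. These 4 and 6 of 13 stand beside 20.7% and 27.8% of all tested genes called. Under the Alb covariate the counts were 1 higher in vehicle, and 2 higher and 2 lower in ivermectin. In vehicle Mbd2 was then at 0.53 (adjusted p = 0.0945), Mta1 at -0.38 and Chd3 at 0.17, none of them called. In ivermectin with the covariate, Chd3 (0.25, adjusted p = 0.0518) and Gatad2b (-0.59, adjusted p = 0.0583) were not called. Without wild-type ivermectin replicate 1, 3 were called higher and 1 lower in ivermectin, and Gatad2a (-0.17, adjusted p = 0.210) and Gatad2b (-0.45, adjusted p = 0.181) were not called. Factors that bind similar GC-rich sites had 4 of 5 tested, with none called for ivermectin. Between labels Sp3 was lower in both treatments (-0.34 and -0.37), and Klf9 higher in vehicle (0.46), again beside 20.7% and 27.8% of all tested genes called. None of the 4 was called in vehicle with Alb as a covariate, where Sp3 was at -0.38 and Klf9 at 0.031. Without wild-type ivermectin replicate 1 none was called in ivermectin, with Sp3 at -0.30 (adjusted p = 0.0515).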

How the data were processed

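Per the submitters' processing notes, the tools were bcl2fastq, STAR 2.7.2b, RSEM 1.3.3 and DESeq2 1.32.0, with build mm10; per the labels' protocols, 125 ng of RNA went through poly(A) selection, a directional kit and 11 cycles, with paired 42-nucleotide reads. The deposited count table holds whole-number counts that equal the expected counts of the authors' RSEM files rounded down, in 373264 of 373264 values. TPM values are as deposited by the authors. Levels and tests use the count table; TPM serves only to compare genes per length.

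The tests used edgeR 4.0.16 (R 4.3.3): filterByExpr (minimum count 10, minimum total 15), TMM factors, a quasi-likelihood fit with 1 mean per group over 16 libraries, and Benjamini-Hochberg adjustment over 10820 genes with a threshold of 0.05. Standard errors were derived from F. Members under the filter had exact permutation tests. The test was also run on simulated counts drawn independently for each library, which does not address structure shared between libraries. Likeness used log2 CPM with a prior count of 2. Replicate pairs differed beyond counting noise (chi-squared per degree of freedom 1.17 to 7.17 over 24 pairs).

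Alternatives were DESeq2 1.42.0, relative log expression factors, no low-count filter, rounded RSEM expected counts, thinning to the smallest total, only the 8 libraries compared, a replicate block, Alb as a covariate, and leaving out each library. For the pathway lists, the Alb covariate and leaving out wild-type ivermectin replicate 1 or 4 were added after seeing the data. Named genes are the members, P2ry1, Alb, the members of each list past the threshold (at most 6, the largest), and the 5 nearest to Egr1; other names were picked with their values known. The members and lists were chosen with earlier results of these data known. Some genes of the lists are counted but not reported here by name. Single-cell files of human donors were not used.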

Additional observations from a re-analysis of the deposited data

Results flagged for a closer look

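The ivermectin response of Egr1 differed between the lines: it was lower in the labelled knockout by 1.22 on the log2 scale (difference -1.22, edgeR adjusted p = 0.000361), with differences of 1.53 in wild type and 0.31 in the labelled knockout. Single libraries lay far from the other 3 of their group for Egr3 in wild-type vehicle (0.978 CPM in replicate 2, 0 in the others) and in wild-type ivermectin (0.663 CPM in replicate 3, 0 in the others), each of which is 1 count. For Egr4 in labelled knockout ivermectin, replicate 2 was at 2.86 CPM, from 5 counts, and the others at 5.82 to 5.90 CPM. Of 26 groups of 4 values examined for such gaps, a rate of 1 in 20 gives about 1.3. That rate does not hold for the Egr3 groups, where 1 count beside 0 in the other libraries makes the gap.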

How the results depend on the processing

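The count of members past the threshold was 1 in wild type with ivermectin and 2 between labels in ivermectin under every alternative run. In the labelled knockout with ivermectin it was 0, and 1 without the low-count filter. Between labels in vehicle it was 2, and 1 when thinned, 1 with DESeq2, 0 with the Alb covariate and 1 to 2 when leaving out single libraries; the difference of the responses had 1, and 0 with the Alb covariate. The cause was not tested. The fold-change SE of Egr1 between labels in vehicle was 0.140, and 0.262 with the Alb covariate.

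Among the called list genes, under the Alb covariate and without wild-type ivermectin replicate 1 or 4, Actb between labels in vehicle changed sign (0.040 with the covariate). Signs of the members changed only for differences that passed no test. With the Alb covariate, Nab1 and Nab2 with ivermectin in wild type were at -0.16 and -0.35, and Nab2 and Srf between labels in vehicle at -0.53 and -0.052; thinned, Nab2 between labels in vehicle was at -0.064. Leaving out single libraries gave, with ivermectin in wild type, Nab1 -0.029 to 0.12, Nab2 -0.13 to 0.15 and Srf -0.13 to 0.097. It gave Nab2 -0.023 to 0.18 with ivermectin in the labelled knockout, Nab2 -0.065 to 0.12 and Srf -0.084 to 0.15 between labels in vehicle, and Nab2 -0.029 to 0.24 in ivermectin. For the difference of the responses it gave Nab1 -0.035 to 0.13 and Nab2 -0.048 to 0.23.

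Over the same left-out libraries Egr1 ran from 1.39 to 1.68 in wild type, 0.26 to 0.40 in the labelled knockout, 0.54 to 0.76 and -0.70 to -0.47 between labels in vehicle and ivermectin, and -1.37 to -1.08 for the difference of the responses. A replicate block gave the same counts of members, 1, 0, 2, 2 and 1 in the order used above, and changed no call of a member. Over all tested genes the block gave 47 calls for the difference of the responses, against 24 in the main fit. Libraries with the same replicate number had correlations of deviations from -0.05 to 0.14, with 2 of 16 pairs over 0.1. Of 32 best matches, each picked from 4 libraries, 16 were with the own number. The main test did not pair by number, and whether libraries of the same number share a culture or batch was not tested. Low counts limit Egr2, Egr3 and Egr4, which neither edgeR without the filter nor DESeq2 called.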
